A study of Mus musculus with 20 samples.

Results

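Immediate early genes were followed in the retinas of Nrl-/- mice between 1 and 10 months of age. Of the 10 genes listed (Fos, Fosb, Junb, Atf3, Egr1, Nr4a1, Npas4, Ier2, Dusp1 and Arc), 9 had probe sets under their symbol in the platform's annotation, and no probe set was assigned there to Fosb. These 9 genes held 71 probe sets, out of 179496 that carry a single gene symbol and 15781 genes. The count per gene was 6 for Fos, 6 for Junb, 6 for Atf3, 16 for Egr1, 12 for Nr4a1, 11 for Npas4, 3 for Ier2, 6 for Dusp1 and 5 for Arc.

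All samples came from retinas of C57Bl/6J mice that carry the Nrl-/- genotype, and were hybridised to exon arrays. The groups are the 5 ages of 1, 2, 4, 6 and 10 months, each with 4 mice, and each mouse has its own array. A sample pooled both retinas of a mouse, so replicates are separate mice, and no wild type retina is among the samples used here. Nrl is the transcription factor gene that rods need to form, and where it is missing the photoreceptors resemble cones. The study followed these mice over age, through a degeneration and remodelling of the retina that its title calls rapid and transient.

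Immediate early genes are transcribed within minutes of a stimulus, without new protein synthesis, when calcium, cyclic AMP or growth factor signalling activates transcription factors such as CREB and SRF that are already bound in the cell. Fos, Fosb and Junb encode subunits of the AP-1 transcription factor. Their transcripts are short-lived, and in the retina they are known to respond to light, injury and changes in synaptic input. The labels state neither the time of day nor the light exposure at which the retinas were taken, and the part of either in the levels below was not tested.

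The region before the transcription start was looked at in RefSeq (GRCm38.p6), where 7 of the 10 listed genes had an entry (Fos, Fosb, Junb, Atf3, Nr4a1, Npas4 and Dusp1). The letters TGACG, the core of the cyclic AMP response element that CREB binds, were searched on both strands within 250 bases before to 50 bases after the start. They occurred in 7 of 7 entries, against 20.8% of 32851 promoters in the table. The sequences of the 4 genes with an entry whose levels moved most between ages are printed here for the 250 bases before the start, 5′ to 3′ on the gene's own strand, with TGACG or its reverse complement CGTCA in capitals. Fos is at chr12:85473640-85473889 on the plus strand, Nr4a1 at chr15:101266596-101266845 on the plus strand, Npas4 at chr19:4989972-4990221 on the minus strand and Junb at chr8:84978749-84978998 on the minus strand.
Fos: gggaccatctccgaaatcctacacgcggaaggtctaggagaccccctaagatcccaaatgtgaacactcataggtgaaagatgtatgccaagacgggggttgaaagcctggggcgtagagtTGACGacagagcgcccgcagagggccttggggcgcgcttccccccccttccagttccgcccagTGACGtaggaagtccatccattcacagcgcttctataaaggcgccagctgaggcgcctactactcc
Nr4a1: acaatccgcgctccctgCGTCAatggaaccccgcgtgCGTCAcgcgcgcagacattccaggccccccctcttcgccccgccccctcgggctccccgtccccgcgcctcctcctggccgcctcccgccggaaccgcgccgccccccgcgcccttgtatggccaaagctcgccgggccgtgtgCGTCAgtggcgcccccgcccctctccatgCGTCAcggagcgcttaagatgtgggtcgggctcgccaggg
Npas4: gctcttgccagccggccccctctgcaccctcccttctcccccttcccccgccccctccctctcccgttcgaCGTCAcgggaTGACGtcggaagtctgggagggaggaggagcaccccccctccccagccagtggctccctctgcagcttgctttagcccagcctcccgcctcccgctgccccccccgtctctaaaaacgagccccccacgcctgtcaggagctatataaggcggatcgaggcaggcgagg
Junb: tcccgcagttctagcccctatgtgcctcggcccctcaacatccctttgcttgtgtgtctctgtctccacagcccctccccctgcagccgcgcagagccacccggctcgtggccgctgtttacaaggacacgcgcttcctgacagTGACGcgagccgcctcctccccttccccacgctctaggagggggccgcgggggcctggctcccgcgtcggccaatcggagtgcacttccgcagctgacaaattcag

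In Fos the first letters of the matches lie 129 and 66 bases before the start. Nr4a1 has 4 matches, at 233, 213, 69 and 40 bases, Npas4 has 2, at 179 and 169 bases, and Junb has 1, at 106 bases. The entries not printed have matches at 60 bases in Fosb, 7 bases in Atf3 and 191, 143 and 140 bases in Dusp1, where the last pair overlap as the full palindrome TGACGTCA. That palindrome occurs in 1 of 7 entries and in 1.79% of all promoters. The CArG box that SRF binds was found in 0 of 7 entries (1.63% of all promoters) and the AP-1 site TGANTCA in 0 of 7 (7.81%). A match is a match of letters only, and the absence of letters concerns this window alone.

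Array medians were 7.76 to 7.78 on the log2 scale. The mean correlation of an array with the others was lowest, at 0.974, in replicate 4 of 4 months. The cone opsin gene Opn1sw stood at 13.5 to 13.8 and cone arrestin Arr3 at 11.8 to 12.5 over the 20 arrays, while Nrl itself stood at 5.96 to 6.54. Markers of neighbouring tissue differed between arrays. The mean of 11 lens genes was 6.64 to 7.21 at 1 month, 5.83 to 6.12 at 2 months, 5.91 to 6.40 at 4 months and 5.99 to 6.23 at 10 months, and at 6 months it was 7.04 in replicate 2 and 5.80 to 6.13 in the others. Crystallin genes of that list are also expressed by retinal cells. The mean of 9 pigment epithelium genes was 6.55 to 7.01 in all arrays of 1 to 6 months, and 7.91, 6.56, 7.43 and 7.73 in the 4 arrays of 10 months. The mean of the Y-linked genes Eif2s3y and Kdm5d was 4.01 to 4.28 in all arrays of 2 months and 4.12 and 4.42 in replicates 2 and 3 of 10 months, against 7.33 to 8.27 in all remaining arrays, so that sex and the age of 2 months cannot be told apart. In bulk tissue, fewer cells of a type and less RNA per cell cannot be told apart either.

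Levels are log2 intensities per gene on the authors' normalized scale, and changes are differences of age means on that scale, positive where the later age is higher. Each change was tested with limma over 11836 genes in 1 fit of the 20 arrays, with two-sided p-values adjusted by the method of Benjamini and Hochberg. A gene was called at an adjusted p under 0.05. All 9 measured genes lay above the limit for dim genes (5.61) in mean level over the 20 arrays. This limit only sets aside the 25% of genes with the lowest means and does not mark detection. Nrl, missing in these mice, lay above it at 5.96 to 6.54. Npas4 stood at 5.89 to 6.54 in the arrays of 2, 4 and 6 months, and whether those values exceed background was not tested. Levels of different genes are not set against each other, since probes differ in brightness.

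Over the 5 ages, 7 of the 9 genes differed at some age in the F test, against 38.4% of all genes tested. The adjusted p was 1.79e-05 for Fos, 1.85e-06 for Egr1, 2.49e-05 for Nr4a1, 0.00122 for Npas4, 0.00286 for Junb, 0.0208 for Ier2 and 0.00163 for Dusp1. Arc (0.112) and Atf3 (0.0622) did not pass. Fos, Egr1, Nr4a1 and Npas4 had their highest means at 10 months, the next highest at 1 month and lower means at 2, 4 and 6 months. Taking only the brightest probe set of each gene in place of all its probe sets, the F test called 4.

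**Figure D1:**
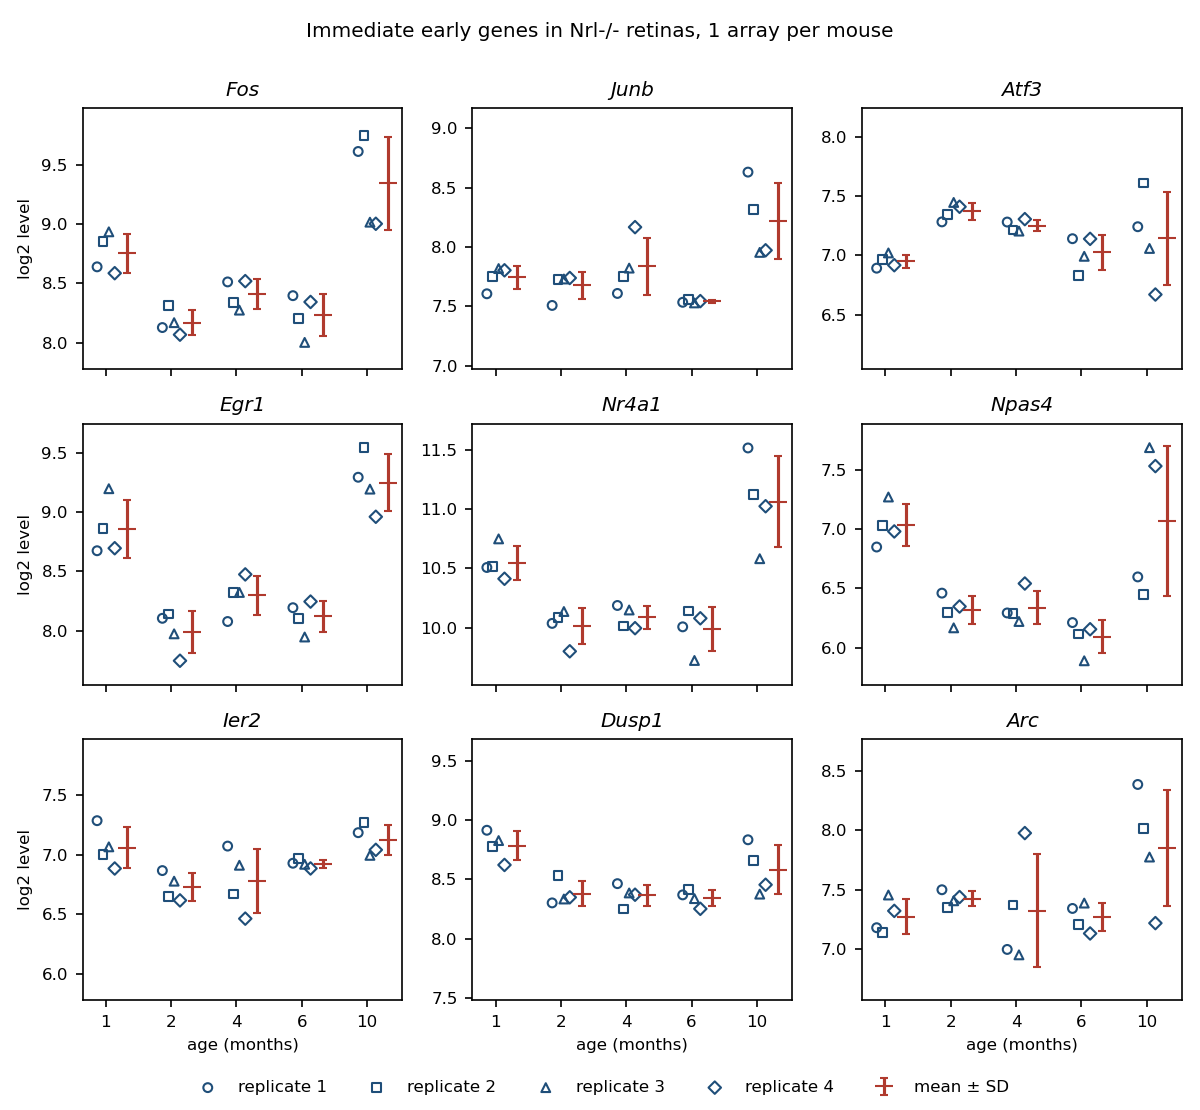
Log2 level of each measured immediate early gene (y axis, the same span in each panel) against age in months (x axis), with a symbol for each replicate mouse and the mean ± SD of the 4 mice in red. Fos, Egr1 and Nr4a1 have their lowest arrays at 2 and 6 months and their highest at 10 months, and Npas4 is split into 2 high and 2 low arrays at 10 months.

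Fos, the AP-1 subunit most used as a mark of recent stimulation, had its lowest values in the middle ages and its highest at 10 months. Its log2 level was 8.64, 8.85, 8.93 and 8.59 in the 4 mice of 1 month, 8.13, 8.32, 8.17 and 8.07 at 2 months, 8.51, 8.34, 8.27 and 8.52 at 4 months, 8.40, 8.20, 8.003 and 8.34 at 6 months and 9.61, 9.75, 9.02 and 9.002 at 10 months. Every array of 10 months lay above every other array, and every array of 2, 4 and 6 months lay below every array of 1 month. Fos fell by 0.58 ± 0.14 (SE) at 2 months against 1 month (adjusted p = 0.0152) and by 0.52 ± 0.14 at 6 months against 1 month (adjusted p = 0.0181), while the change of -0.34 at 4 months was not called (adjusted p = 0.117). It rose by 1.11 ± 0.14 at 10 months against 6 months (adjusted p = 2.75e-05), by 0.93 against 4 months (adjusted p = 0.000164) and by 0.59 against 1 month (adjusted p = 0.00268). The fall at 2 months was not called when replicate 2 or 3 of 1 month, or else replicate 4 of 2 months, was left out (adjusted p of 0.0504, 0.0547 and 0.0555). The fall at 6 months was not called when replicate 2 or 3 of 1 month, or else replicate 3 of 6 months, was left out (adjusted p of 0.0522, 0.0633 and 0.0711).

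Junb, another AP-1 subunit, differed from 1 month only at 10 months among the 4 comparisons with that age. It measured 8.63, 8.32, 7.96 and 7.97 in the mice of 10 months, against 7.53, 7.56, 7.53 and 7.54 at 6 months and 7.61, 7.75, 7.82 and 7.80 at 1 month. The arrays of 10 months lay above all arrays of 1 and of 6 months. Junb rose by 0.68 ± 0.13 at 10 months against 6 months (adjusted p = 0.000803) and by 0.47 ± 0.13 against 1 month (adjusted p = 0.00528). Against 4 months, where replicate 4 stood at 8.17 and the others at 7.61 to 7.82, its rise of 0.38 (adjusted p = 0.0359) was lost when replicate 1, 2 or 3 of 4 months, or else replicate 1 or 2 of 10 months, was left out, with adjusted p up to 0.137. Apart from leaving out arrays, the rise against 4 months was called in 7 of 13 other settings, and the brightest Junb probe set changed by 0.00065. No change was called between 1 month and 2, 4 or 6 months (-0.07, 0.09 and -0.20, adjusted p of 0.806, 0.683 and 0.305).

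Atf3, a member of the same leucine zipper superfamily that is induced by axon injury and cellular stress, moved the other way early on. Its level was 7.28, 7.34, 7.45 and 7.41 in the mice of 2 months, against 6.89, 6.96, 7.02 and 6.92 in those of 1 month, and the 2 groups did not overlap. The rise of 0.42 ± 0.13 had an adjusted p of 0.0455 and was lost without any 1 of the 8 arrays (adjusted p of 0.0546 to 0.12). With a covariate for the Y-linked level the change was -0.11 (adjusted p = 0.786), but that fit cannot separate sex from the age of 2 months. At 10 months Atf3 ranged over 6.67 to 7.61, which spans the arrays of all other ages.

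Egr1, a zinc finger transcription factor driven by SRF and its cofactors, had the largest fall of the 9 genes at 2 months. It measured 8.11, 8.14, 7.97 and 7.75 in the mice of 2 months, against 8.67, 8.86, 9.20 and 8.70 in those of 1 month. At 4 months it stood at 8.08, 8.33, 8.32 and 8.47, at 6 months at 8.19, 8.11, 7.95 and 8.25, and at 10 months at 9.29, 9.54, 9.19 and 8.96. The arrays of 2, 4 and 6 months lay below all arrays of 1 month, and those of 10 months lay above all arrays of 2, 4 and 6 months but overlapped with 1 month. Egr1 fell by 0.86 ± 0.13 at 2 months (adjusted p = 0.000487), by 0.56 at 4 months (adjusted p = 0.00647) and by 0.73 at 6 months (adjusted p = 0.000738), each against 1 month. It rose by 1.12 ± 0.13 at 10 months against 6 months (adjusted p = 8.52e-06), by 0.95 against 4 months (adjusted p = 5.06e-05) and by 0.39 against 1 month (adjusted p = 0.0208). The last call was lost when replicate 1 or 4 of 1 month, or else replicate 2 of 10 months, was left out (adjusted p of 0.071, 0.0654 and 0.083).

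Nr4a1, an orphan nuclear receptor induced by cyclic AMP and calcium, moved in the same directions as Egr1. Its log2 level was 10.51, 10.52, 10.75 and 10.41 at 1 month, 10.04, 10.09, 10.14 and 9.80 at 2 months, 10.19, 10.02, 10.15 and 10.00 at 4 months, 10.01, 10.14, 9.72 and 10.08 at 6 months and 11.52, 11.12, 10.58 and 11.02 at 10 months. The 12 arrays of 2, 4 and 6 months lay below all 4 of 1 month, and replicate 3 of 10 months was the only array of that age within the range of 1 month. Nr4a1 fell by 0.53 ± 0.14 at 2 months (adjusted p = 0.0245), by 0.46 at 4 months (adjusted p = 0.0339) and by 0.56 at 6 months (adjusted p = 0.0104). It rose by 1.07 ± 0.14 at 10 months against 6 months (adjusted p = 3.36e-05), by 0.97 against 4 months (adjusted p = 9.98e-05) and by 0.51 against 1 month (adjusted p = 0.0067). Without replicate 2 or 3 of 1 month, or without replicate 4 of 2 months, the fall at 2 months was not called (adjusted p of 0.0535, 0.0806 and 0.0956). The fall at 4 months was not called without replicate 1, 2 or 3 of 1 month or without replicate 2, 3 or 4 of 4 months, with adjusted p up to 0.1.

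Npas4, a helix-loop-helix and PAS domain factor that neurons express after calcium entry and that is known as one of the most activity-specific of these genes, fell after 1 month and was uneven at 10 months. It measured 6.85, 7.03, 7.27 and 6.98 at 1 month, 6.46, 6.30, 6.17 and 6.35 at 2 months, 6.29, 6.29, 6.22 and 6.54 at 4 months, 6.21, 6.11, 5.89 and 6.15 at 6 months and 6.60, 6.45, 7.68 and 7.53 at 10 months. No array of 2, 4 or 6 months reached the lowest of 1 month. At 10 months replicates 3 and 4 lay above every other array, and replicates 1 and 2 lay below every array of 1 month. Npas4 fell by 0.71 ± 0.20 at 2 months (adjusted p = 0.0317), by 0.70 at 4 months (adjusted p = 0.0243) and by 0.94 at 6 months (adjusted p = 0.00338), each against 1 month. It rose by 0.97 ± 0.20 at 10 months against 6 months (adjusted p = 0.00195) and by 0.73 against 4 months (adjusted p = 0.014), while its change against 1 month was 0.03 ± 0.20 (adjusted p = 0.91). The rise against 4 months was lost without replicate 3 or 4 of 10 months (adjusted p of 0.0503 and 0.0547). It was also lost in a fit of only the 8 arrays of these 2 ages. The SE of these rises comes from 1 spread for all ages, while the SD of Npas4 was 0.63 at 10 months and 0.14 at 6 months. The fall at 2 months was lost when replicate 2 or 3 of 1 month was left out, or else replicate 2, 3 or 4 of 2 months (adjusted p up to 0.0964). The fall at 4 months was lost when replicate 2 or 3 of either age was left out (adjusted p up to 0.0739).

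Ier2, an early response gene that encodes a small nuclear protein, was measured by 3 probe sets and was called in 1 of the 8 comparisons. Its level was 7.19, 7.27, 6.995 and 7.04 at 10 months, against 7.07, 6.67, 6.91 and 6.46 at 4 months, and the groups overlapped. The rise of 0.34 (adjusted p = 0.029) was lost when replicate 2 or 4 of 4 months, or else replicate 1 or 2 of 10 months, was left out (adjusted p up to 0.0895). Its change at 2 months against 1 month, -0.33 ± 0.11, was not called (adjusted p = 0.0631).

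Dusp1, the phosphatase that switches off MAP kinases and is itself induced by them, was lower at the middle ages and not called higher at 10 months. It stood at 8.91, 8.77, 8.83 and 8.62 at 1 month, 8.30, 8.53, 8.33 and 8.35 at 2 months, 8.46, 8.25, 8.38 and 8.37 at 4 months, 8.37, 8.41, 8.34 and 8.25 at 6 months and 8.83, 8.66, 8.37 and 8.45 at 10 months. The arrays of 2, 4 and 6 months all lay below those of 1 month. Dusp1 fell by 0.40 ± 0.087 at 2 months (adjusted p = 0.00719), by 0.42 at 4 months (adjusted p = 0.00318) and by 0.44 at 6 months (adjusted p = 0.00195), each against 1 month. These 3 calls were kept in all fits that left out an array. At 10 months its change was 0.24 against 6 months (adjusted p = 0.0632), 0.21 against 4 months (adjusted p = 0.0925) and -0.20 against 1 month (adjusted p = 0.0695).

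Arc, whose protein is found at synapses and takes part in the trafficking of glutamate receptors, was spread widely at 4 and at 10 months. It measured 7.18, 7.14, 7.46 and 7.32 at 1 month, 7.50, 7.35, 7.41 and 7.44 at 2 months, 6.997, 7.37, 6.95 and 7.98 at 4 months, 7.34, 7.21, 7.39 and 7.13 at 6 months and 8.39, 8.02, 7.77 and 7.22 at 10 months. Of the arrays of 10 months, 3 lay above all arrays of 1 and 6 months and replicate 4 lay within them. Replicate 4 of 4 months lay above replicates 3 and 4 of 10 months, and the SD was 0.49 at 10 months and 0.47 at 4 months. The rise of 0.57 ± 0.20 at 10 months against 1 month (adjusted p = 0.0306) was lost when replicate 1 or 2 of either age was left out (adjusted p up to 0.127), and the change of 0.58 against 6 months was not called (adjusted p = 0.0513). The rise against 1 month was also lost with the mean of the probe sets of Arc, with its brightest probe set and with the replicate number as a block. The brightest probe set changed by 0.09, and the 5 probe sets by 0.09 to 0.77. No change was called between 1 month and 2, 4 or 6 months (0.15, 0.05 and -0.01, adjusted p of 0.731, 0.906 and 0.988).

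Taken over the list, the first interval was one of lower levels. At 2 months against 1 month, 5 of 9 genes were called lower (Fos, Egr1, Nr4a1, Npas4 and Dusp1), where 5.27% of all genes tested were, and 1 was called higher (Atf3), against 3.33%. The median change was -0.40 over the 9 genes and 0.01 over all genes. The arrays of the 2 ages did not overlap for 6 genes that were lower, against 9.67% of all genes, and for 1 that was higher, against 7.57%. The count of 6 calls was 2 when replicate 2 or 3 of 1 month, or else replicate 4 of 2 months, was left out.

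At 4 months against 1 month, 4 of 9 were called lower (Egr1, Nr4a1, Npas4 and Dusp1), where 8.27% of all genes were, with a median change of -0.34 against 0.01 over all genes. The arrays of the 2 ages did not overlap for 5 genes that were lower, against 9.6% of all genes, and for 1 that was higher (Atf3), against 8.27%. The count was 2 without replicate 2 or 3 of 1 month or replicate 2 or 3 of 4 months. At 6 months against 1 month, 5 of 9 were called lower (the 4 above and Fos), where 8.45% of all genes were, with a median change of -0.44 against 0.01. The arrays of 6 and 1 months did not overlap for 6 genes that were lower, against 11.1% of all genes.

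Between 2, 4 and 6 months no gene was called. At 4 months against 2 months and at 6 months against 4 months limma called 0 of 9 genes, where it called 0.118% and 0% of all genes. In each of these comparisons 1 gene had an unadjusted p under 0.05, Egr1 in the first and Junb in the second, beside 964 and 528 of all genes. The arrays of 6 and 4 months did not overlap for 3 of 9 genes, all lower at 6 months (Npas4, Junb and Atf3), where 1.52% of all genes were lower in this way, and 55 of the 71 probe sets were lower, where 50.9% of all probe sets were.

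At 10 months the list stood higher. Against 6 months, 5 of 9 were called higher (Fos, Egr1, Nr4a1, Npas4 and Junb), where 8.54% of all genes were, and the other 4 had changes of 0.12 to 0.58. The median change was 0.68 over the 9 genes and 0.03 over all genes. The arrays of the 2 ages did not overlap for 6 genes, against 10.6% of all genes. Fos, Egr1 and Nr4a1 were called in every fit that left out an array of these ages and in every other setting tried for this comparison. The comparison shares its 6 month arrays with that of 6 months against 1 month, so the low of 6 months enters both.

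Against 4 months, 6 of 9 were called higher at 10 months (the 5 above and Ier2), where 10.2% of all genes were, with a median change of 0.52 against 0.02. The arrays of 10 and 4 months did not overlap for 3 genes (Fos, Egr1 and Nr4a1), against 9.02% of all genes. In a fit of these 8 arrays alone the count was 3. Against 1 month, 5 of 9 were called higher (Fos, Egr1, Nr4a1, Junb and Arc), where 20.6% of all genes were, with a median change of 0.39 against 0.04. The arrays of 10 and 1 months did not overlap for 2 of the 9 (Fos and Junb), against 18% of all genes. The count was 3 when replicate 1 of 1 month, or else replicate 2 of 10 months, was left out.

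**Figure D2:**
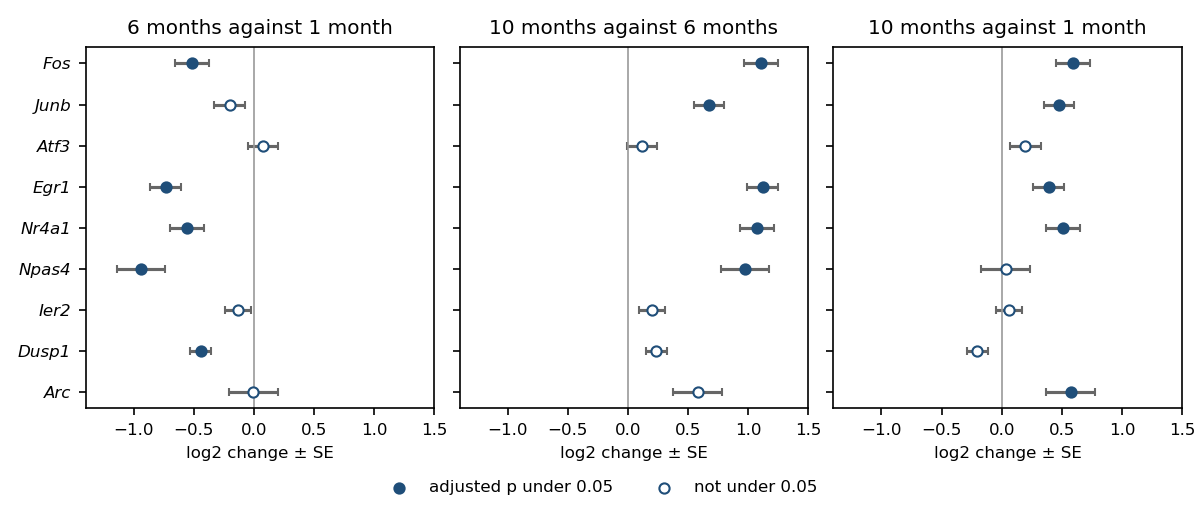
Log2 change ± SE of the 9 genes (x axis) at 6 months against 1 month, 10 months against 6 months and 10 months against 1 month, with filled points for an adjusted p under 0.05 in limma. The 5 called genes of the first panel lie between -0.94 and -0.44, and the 5 of the second between 0.68 and 1.12.

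The lens and pigment epithelium levels moved with age beside these genes. Every array of 1 month had a higher lens mean than every later array except replicate 2 of 6 months. A fit with the lens mean therefore cannot separate it from the age of 1 month. With the lens mean as a covariate the changes at 6 months against 1 month were -0.66 for Egr1 (adjusted p = 0.0235), -0.43 for Dusp1 (0.0318), -0.47 for Fos (0.153), -0.54 for Nr4a1 (0.0915) and -0.78 for Npas4 (0.0776), so that 2 of the 5 were called. At 2 and at 4 months against 1 month that covariate left 0 calls. The changes at 2 months were then -0.51 for Fos, -0.75 for Egr1, -0.51 for Nr4a1, -0.48 for Npas4 and -0.38 for Dusp1 (adjusted p of 0.107 to 0.511), where they were -0.58, -0.86, -0.53, -0.71 and -0.40 without it. At 4 months Dusp1 changed by -0.40 with the covariate (adjusted p = 0.0778) and by -0.42 without it. At 10 months against 1 month the covariate left the calls of Fos and Junb.

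With the pigment epithelium mean as a covariate, added after seeing the data, the count of calls at 10 months was 4 in place of 5 against 6 months and 3 in place of 6 against 4 months. Npas4 then changed by 0.70 against 6 months (adjusted p = 0.064) and by 0.44 against 4 months (adjusted p = 0.281). Against 1 month, Nr4a1 (0.42, adjusted p = 0.0665) and Arc (0.54, adjusted p = 0.112) were no longer called and Atf3 was (0.39, adjusted p = 0.0256). Replicate 2 of 10 months, whose pigment epithelium mean was 6.56, had the highest Fos (9.75) and Egr1 (9.54) of the 20 arrays and the lowest Npas4 (6.45) of its age. Replicate 1, with the highest pigment epithelium mean (7.91), had the highest Nr4a1, Junb, Arc and Dusp1 of its age. The other arrays of 10 months had a higher pigment epithelium mean than every array of 1 to 6 months. These fits therefore cannot separate that mean from the age of 10 months. The part of lens and pigment epithelium in these levels was not tested further.

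The Y-linked level also moved with age. Every array of 2 months had a low Y-linked level and every array of 1, 4 and 6 months a high one. With it as a covariate, the count of calls was 1 in place of 6 at 2 months against 1 month, and the changes were -1.20 for Egr1 (adjusted p = 0.0318), -0.77 for Fos (0.174), -0.61 for Npas4 (0.43), -0.28 for Dusp1 (0.387) and -0.06 for Nr4a1 (0.916). At 10 months against 1 month the count was 2 in place of 5, Nr4a1 (0.78, adjusted p = 0.00297) and Junb (0.53, adjusted p = 0.032), while the changes of Fos (0.49, adjusted p = 0.0739), Egr1 (0.21, adjusted p = 0.412) and Arc (0.44, adjusted p = 0.272) were not called. Replicates 2 and 3 of 10 months had the low Y-linked level. Within 1, 2, 4 and 6 months this level varied little beside its span of 4.12 to 7.72 at 10 months. The slope of the covariate therefore rests mainly on the 4 mice of 10 months. These fits cannot separate sex from the age of 2 months.

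The values of the 4 mice of 10 months were widely spread for most of the 9 genes. The SD between mice had a median over the 9 genes of 0.14, 0.11, 0.14, 0.13 and 0.38 at 1, 2, 4, 6 and 10 months, where its median over all genes was 0.099, 0.083, 0.12, 0.092 and 0.12. Among the SDs of all genes at 10 months, Npas4 (SD 0.63) stood at percentile 99.6, Arc (0.49) at 99.1, Fos (0.39) at 98.1, Atf3 (0.39) at 98.05, Nr4a1 (0.38) at 97.9, Junb (0.32) at 96.1, Egr1 (0.24) at 89.3, Dusp1 (0.21) at 82.6 and Ier2 (0.13) at 53.8. Replicates 1 and 2 were the highest 2 of the 4 arrays for 8 of the 9 genes, an order held by 11% of all genes tested. For Npas4 they were the lowest 2, an order held by 11.3% of all genes. These orders were seen in the values first and were not tested.

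**Figure D3:**
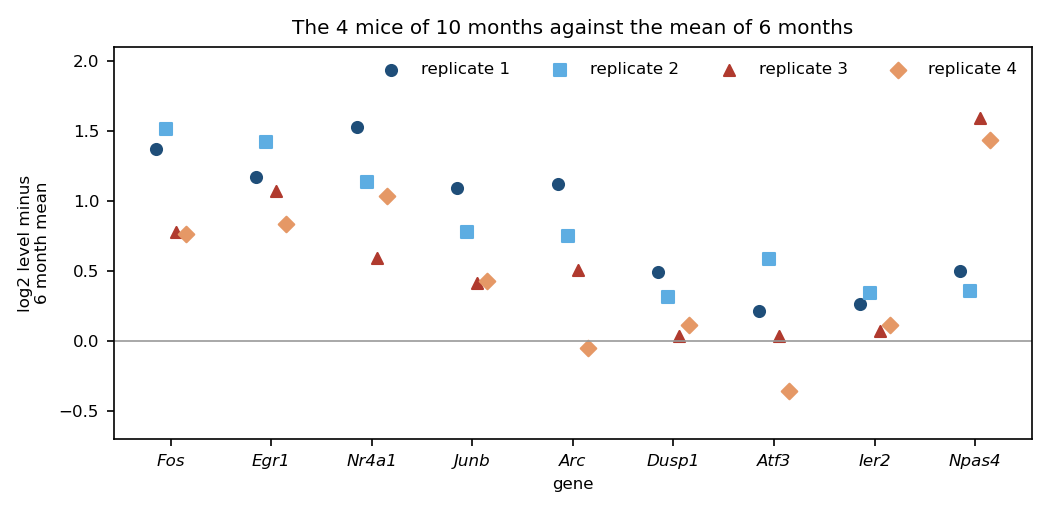
Log2 level of each gene in each of the 4 mice of 10 months, minus the mean of the 4 mice of 6 months (y axis), with a symbol and colour for each mouse. The circles and squares (replicates 1 and 2) are the upper pair for 8 genes and the lower pair for Npas4, at the right.

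Most probe sets of the 9 genes shifted in 1 direction. At 6 months against 1 month 59 of the 71 probe sets were lower, where 48.2% of all probe sets were, and at 10 months against 6 months 68 of 71 were higher, where 52.9% were. All 12 probe sets of Nr4a1 were lower at 6 months (-0.74 to -0.33) and higher at 10 months against 6 months (0.82 to 1.22). The 8 probe sets of Egr1 above the median level of all probe sets (7.85) changed by -1.03 to -0.82 at 6 months, and the 8 below it by -0.76 to 0.32, with a median of 0.03. At 10 months against 6 months these groups changed by 1.17 to 1.57 and by 0.12 to 0.94. The gene level change of Egr1 is therefore smaller than that of its bright probe sets.

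The same held for Fos, whose 4 bright probe sets changed by -0.99 to -0.43 at 6 months against 1 month and whose 2 dim ones changed by -0.12 and 0.09. All 11 probe sets of Npas4 were below the median level and changed by -1.54 to 0.11 at 6 months and by 0.41 to 1.48 at 10 months against 6 months. In Junb the brightest probe set (mean level 10.28) changed by 0.19 at 10 months against 6 months and was not called (adjusted p = 0.446), while its other 5 changed by 0.37 to 0.95. The 3 Junb probe sets above the median level had a median change of 0.65 and the 3 below it one of 0.71.

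**Figure D4:**
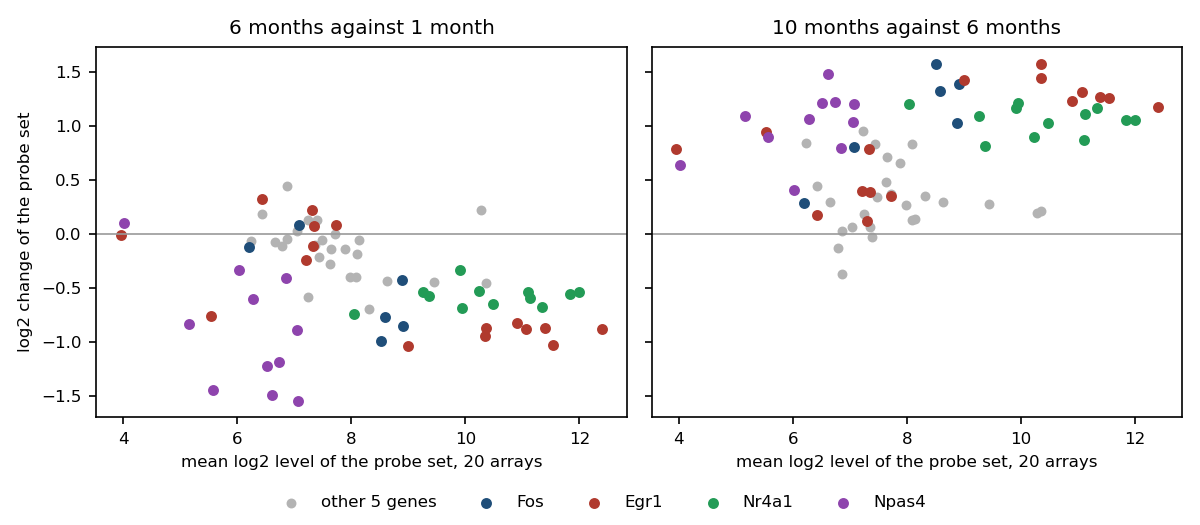
Log2 change of each of the 71 probe sets (y axis) against its mean log2 level over 20 arrays (x axis), at 6 months against 1 month (left) and 10 months against 6 months (right), with Fos, Egr1, Nr4a1 and Npas4 coloured. On the right 68 of the 71 points lie above 0, and the dimmer probe sets of Egr1 lie nearer to 0 than its bright ones in both panels.

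Other immediate early genes, a list of 49 of which 43 were tested, were also higher at 10 months. Against 6 months 22 of 43 were called, all higher, where 8.54% of all genes were called higher, with a median change of 0.31 (0.03 over all genes). Against 4 months 17 were called, all higher, where 10.2% of all genes were, with a median of 0.21 (0.02 over all genes). With the pigment epithelium mean as a covariate, added after seeing the data, 12 were called against 6 months. Against 1 month, 3 were called higher and 1 lower at 2 months (3.33% and 5.27% of all genes), 2 and 4 at 4 months (6.89% and 8.27%), and 3 and 4 at 6 months (7.93% and 8.45%). The fall at 2 months was that of Dusp6, a phosphatase of ERK kinases (-0.33, adjusted p = 0.0285).

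Of the 43, those named by the largest called change at 10 months against 4 months were Sik1, Per1, Nr4a3 and Egr3. Sik1, a kinase that restrains CREB coactivators, measured 9.78, 9.37, 8.63 and 8.70 at 10 months, against 8.38, 8.22, 8.08 and 8.07 at 4 months, and rose by 0.93 (adjusted p = 0.00102). Nr4a3, a receptor of the Nr4a1 family, measured 8.19, 7.39, 6.53 and 6.48 at 10 months, against 6.27, 6.45, 6.34 and 6.54 at 4 months, and rose by 0.75 (adjusted p = 0.0325). Its replicates 1 and 2 carried the difference, and replicates 3 and 4 lay close to the arrays of 4 months. Egr3, a zinc finger factor of the Egr1 family, measured 7.78, 6.95, 7.38 and 7.70 at 10 months, against 6.69, 6.39, 6.82 and 6.95 at 4 months, and rose by 0.74 (adjusted p = 0.00118). In Egr3 replicate 2 was the lowest, so the order of the mice differed from that of Fos. Replicates 1 and 2 were the highest 2 of the 4 arrays for 18 of the 43 genes, against 11% of all genes tested. They were the lowest 2 for 2 of the 43, against 11.3% of all genes. These orders were not tested.

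The called genes of this list at 2 months against 1 month were Socs3, an inhibitor of cytokine signalling (0.43, adjusted p = 0.0436), Gadd45b, a stress response gene (0.36, adjusted p = 0.0435), Sgk1, a kinase induced by glucocorticoids (0.32, adjusted p = 0.0465), and Dusp6. Jun, the partner of Fos in AP-1, and Tiparp are named here after their values were seen, as the 2 genes called lower at 10 months against 1 month, where 20.7% of all genes were called lower. In the same comparison 22 of the 43 were called higher, against 20.6% of all genes. Jun measured 8.85, 8.81, 8.24 and 8.75 at 10 months, against 9.19, 9.13, 9.09 and 9.14 at 1 month, and fell by 0.47 (adjusted p = 0.00276) with no overlap between the ages, while its change against 6 months was -0.18 (adjusted p = 0.286).

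**Figure D5:**
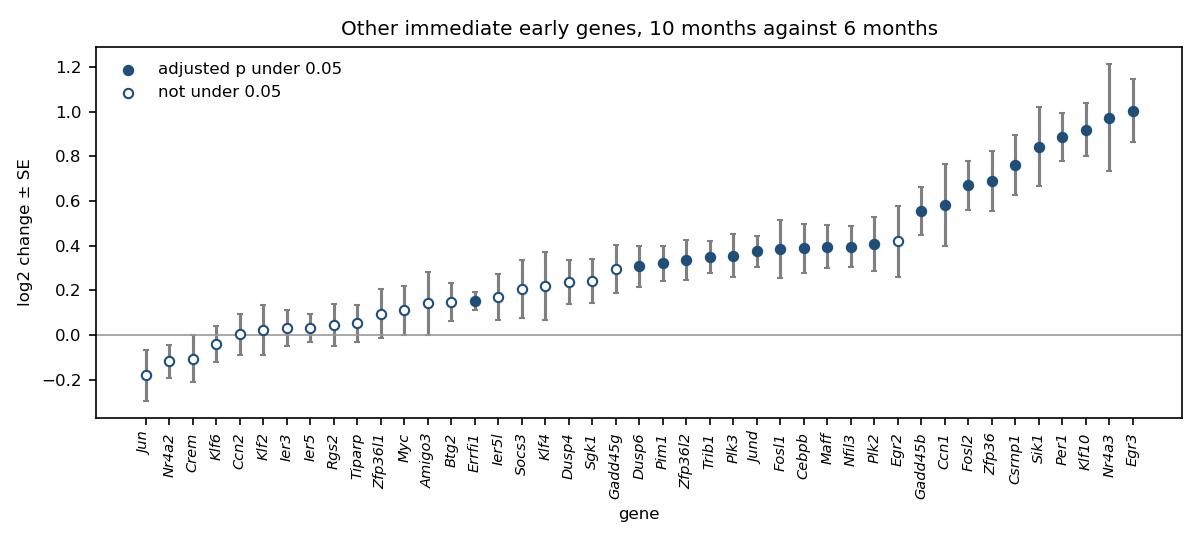
Log2 change ± SE at 10 months against 6 months (y axis) for the 43 tested genes of the list of other immediate early genes (x axis), in order of their change, with filled points for an adjusted p under 0.05 in limma. The 22 filled points all lie above 0, and Egr3 (1.00) and Nr4a3 (0.97) are at the right end.

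Of 12 tested genes that neurons transcribe later after activity, 2 were called higher at 10 months against 6 months, where 8.54% of all genes were, and 3 against 4 months, where 10.2% were. The median changes were 0.04 and 0.13. Against 4 months these were Tac1, the substance P precursor (0.36, adjusted p = 0.00984), Nptx2, a secreted protein that gathers glutamate receptors (0.34, adjusted p = 0.0103), and Nrn1, a neurite growth protein (0.33, adjusted p = 0.04). Syt4 was the 1 gene of 12 called at 2 months against 1 month (0.27, adjusted p = 0.0291), where 3.33% of all genes were called higher.

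Upstream regulators, the calcium channels, kinases, coactivators and transcription factors of the pathways that induce these genes, were mostly not called. Of 31 tested, 5 were called at 10 months against 4 months, all lower, where 11.7% of all genes were. Against 6 months 2 were called higher and 4 lower, where 8.54% and 11.7% of all genes were, so these counts were near the shares over all genes. The gene of SRF itself, Srf, named after its values were seen, rose by 0.25 at 10 months against 6 months (adjusted p = 0.00861). The CREB gene itself, Creb1, fell by 0.26 at 10 months against 4 months (adjusted p = 0.00306), as did Mrtfa, a cofactor of SRF (by 0.37, adjusted p = 0.000352), Elk3, an ETS factor of the SRF complex (by 0.31, adjusted p = 0.00583), and Camkk2, a calcium-dependent kinase (by 0.24, adjusted p = 0.00598). At 2 months against 1 month 1 was called higher, Mef2c (0.43, adjusted p = 0.000672), where 3.33% of all genes were. In that comparison 2 were called lower, Elk3 (-0.31, adjusted p = 0.0144) and Camk2b (-0.18, adjusted p = 0.0496), where 5.27% of all genes were. Transcript levels do not show the phosphorylation by which most of these proteins are regulated.

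Lists of genes under hormonal, circadian and stress control were looked at beside the immediate early genes. Of 8 tested glucocorticoid-responsive genes, 6 were called higher at 10 months against 4 months and 6 against 6 months, where 10.2% and 8.54% of all genes were. Mt2 (1.34, adjusted p = 0.000284) and Mt1 (0.70, adjusted p = 8.59e-05) encode metallothioneins, and Cdkn1a (1.32, adjusted p = 3.27e-05) encodes a cell cycle inhibitor. At 2 months against 1 month 4 of the 8 were called higher (3.33% of all genes), Mt2 (1.38, adjusted p = 0.000758), Mt1 (0.61, adjusted p = 0.001), Fkbp5 (0.51, adjusted p = 0.00392) and Sgk1, in the interval where 5 immediate early genes fell. Per1 and Sgk1 are members of more than 1 of these lists.

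Of 16 clock genes, 6 were called higher and 1 lower at 10 months, both against 4 months (10.2% and 11.7% of all genes) and against 6 months (8.54% and 11.7%). Per1, which light induces in the clock of the brain, measured 10.72, 10.24, 10.07 and 10.15 at 10 months, against 9.52, 9.43, 9.57 and 9.53 at 4 months, and rose by 0.78 (adjusted p = 4.67e-05). Per2 (0.44, adjusted p = 0.000931) and Cry1 (0.38, adjusted p = 0.00014), which with Per1 form the negative limb of the clock, and Bhlhe40, a clock repressor (0.38, adjusted p = 0.000168), were also called. In limma 0 of 16 were called at 2 months against 1 month, where 4 had an unadjusted p under 0.05. Of 5 cytosolic heat shock genes, Bag3 (0.65, adjusted p = 0.00663) and Dnaja1 (0.42, adjusted p = 0.0112) rose and Hsph1 fell by 0.53 (adjusted p = 8.47e-06) at 10 months against 4 months. In that comparison 10.2% of all genes were called higher and 11.7% lower, and the median change of the 5 was -0.07. The part of these pathways in the immediate early gene levels was not tested.

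Markers of retinal cell types moved at the same time. The mean of 12 microglial genes was 7.004, 7.41, 7.22, 7.06 and 6.94 at 1, 2, 4, 6 and 10 months, highest at 2 months. The lowest mean level was at 2 months for Fos, Egr1 and Ier2, at 6 months for Nr4a1, Npas4, Junb, Arc and Dusp1, and at 1 month for Atf3. The mean of 12 Müller glia genes was 10.05, 10.27, 10.36, 10.41 and 10.51, and that of 10 cone genes was 11.57, 11.62, 11.52, 11.53 and 11.25 at these ages. At 10 months against 6 months 7 of 10 cone genes were called lower, where 11.7% of all genes were. The mean of 9 ganglion cell genes was 8.96, 8.91, 8.98, 8.996 and 9.15 and that of 9 amacrine cell genes was 9.54, 9.51, 9.61, 9.66 and 9.75 at these ages. At 10 months against 1 month 5 of 9 genes of each of these lists were called higher, where 20.6% of all genes were. Against 6 months 2 ganglion cell genes and 0 amacrine genes were called higher, where 8.54% of all genes were (1 amacrine gene had an unadjusted p under 0.05). The mean of 9 bipolar cell genes was 10.19, 10.26, 10.29, 10.35 and 10.35. The part of these shifts in the immediate early gene levels was not tested.

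The genes whose levels followed the mean of the 9 genes most closely over the 20 arrays were Ripor1 (Pearson r = 0.91), Cacng5 (0.88), Per1 (0.88), Rnft2 (0.88), Pfkp (0.88), Plekhg5 (0.87), Midn (0.87) and Tulp3 (0.86). Ripor1 rose by 0.29 at 10 months against 6 months and Cacng5 by 0.32. Both were picked for following, over the same arrays, a mean that rises at 10 months. Their rise therefore follows from the choice and is no separate evidence. When each array was set against the mean of its own age, the closest genes were F3 (r = 0.85), Ccn1 (0.84), Nr4a3 (0.82), Bag3 (0.81), Aqp1 (0.81), Drd4 (0.79), Scrn2 (0.78) and Epha2 (0.78). Ccn1, a matrix protein gene from the list of other immediate early genes, measured 8.12, 7.87, 7.05 and 6.98 in the mice of 10 months. Replicates 1 and 2 were the upper pair, an order that the choice by correlation favours, so it is no separate evidence. These correlations share the arrays and their hybridisation. Among the 36 pairs of the 9 genes, the median r was 0.53 over the 20 arrays and 0.37 after the age means were taken out, and 0.26 when the arrays of 10 months were left out as well. With the age means taken out, r was positive in 25 of the 36 pairs. It was negative between Npas4 and each other gene, from -0.62 with Atf3 to -0.16 with Egr1. Without the arrays of 10 months only the r of Npas4 with Ier2 and with Dusp1 stayed negative. Such medians were not computed for pairs of other genes.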

How the data were processed

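Total RNA from both retinas of a mouse was depleted of ribosomal RNA and hybridised to exon arrays, per the labels' protocols. The authors deposited log2 intensities per probe set made with RMA, per the submitters' processing notes. Neither the RMA version nor the choice of probe sets is given in the sources used here. RMA makes the distributions of all arrays alike, which hides any change common to all genes. Of 194293 probe sets, 179496 with a single gene symbol were used. Another 1328 had several symbols and 13469 were unnamed there. Symbols were updated through the RefSeq gene table of GRCm38.p6 (2039 changed, 15744 of 15781 genes current).

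Probe sets of a gene were summarised by median polish (median of 9 probe sets), and the 25% of genes with the lowest mean over the 20 arrays were left out. Ages were compared in R 4.3.3 by the lmFit and eBayes functions of limma 3.58.1 (15 residual degrees of freedom, 8 comparisons and an F test). The number of arrays, 4 per age, limits the precision. No 2 arrays held the same values. Replicate numbers were those of separate mice and did not pair arrays across ages (median correlation of deviations -0.03 over 40 pairs with the same number).

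The listed genes, the other lists and the tests were chosen with earlier results of these data known. Named genes are the listed ones, up to 4 called genes of each further list with the largest change at 2 months against 1 month and at 10 months against 4 months, the 2 comparisons with most calls, and the 8 closest genes by correlation. Alternatives were the mean or the brightest probe set, no filter or a 50% filter, median centring, quantile normalization, weights per array, eBayes with trend and robust, a replicate block, the Y-linked or lens level as a covariate, only the 8 arrays of 2 ages and leaving out each array. The steps were tested on simulated data, and figures were drawn with matplotlib 3.10.9.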

Additional observations from a re-analysis of the deposited data

Results flagged for a closer look

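Among 45 groups of 4 arrays (9 genes at 5 ages), 1 held an array whose gap to its nearest neighbour was large for the range of the group. Junb at 2 months was 7.51 in replicate 1 and 7.73 to 7.74 in the others, a gap of 0.958 of the range against a critical value of 0.829. Chance alone flags about 1 in 20 such groups.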

How the results depend on the processing

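Precision rests on 4 arrays per age, and adjusted p-values near 0.05 move with 1 array. Of 31 calls of the 9 genes, 19 were kept in every fit without 1 array and 9 in every other setting too. The counts called at 4 against 2 months and 6 against 4 months were 0 in every setting. The cause of the moves listed here was not tested.

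A covariate for the Y-linked level, whose slope rests mainly on the 4 mice of 10 months, turned Atf3 to -0.11 at 2 months. With it the count called was 1 at 2 months against 1 month (6 without it). At 10 months against 1 month the count was 2 (5 without it). The lens level cannot be separated from the age of 1 month. With the lens level the count was 0, 0, 2 and 2 at 2, 4, 6 and 10 months against 1 month (6, 4, 5 and 5 without it). With the brightest probe set, which left Npas4 among the dim genes, it was 3 at 10 against 6 months (5 with all probe sets) and 4 in the F test (7). With only the 8 arrays of 10 and 4 months it was 3, and with the pigment epithelium level, added after seeing the data, also 3 (6 in the full fit). That covariate gave 12 other immediate early genes at 10 against 6 months (22 without it).

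Leaving out 1 array gave counts of 2 to 6 at 2 months, 2 to 5 at 4 months, 4 to 5 at 6 months and 3 to 6 at 10 months, each against 1 month. It gave 5 to 7 at 10 against 6 months, 4 to 6 at 10 against 4 months, 7 to 9 in the F test and 18 to 22 for the other immediate early genes. With the replicate number as a block the counts were 6, 5, 5 and 4 at 2, 4, 6 and 10 months against 1 month, 5 at 10 against 6 months, 5 at 10 against 4 months and 7 in the F test. Deviations of each array from its age mean were correlated with those of arrays of other ages and averaged by replicate number. The highest average was that of the own number for 3 of the 20 arrays.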
